A study of Mus musculus with 93 samples.

Results

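The change of gene expression with age in the wild-type mouse eyecup was measured by comparing 8 libraries from 9-month-old mice with 6 libraries from 3-month-old mice, 14 of the 93 libraries of the series, chosen by their labels alone. All were posterior eyecups of female Efemp1+/+ (Wt) mice with no treatment, and they differed by age. The eyecup is the whole eye after removal of lens and neural retina, so that it holds pigment epithelium, choroid and sclera together with the tissue at the front of the eye and attached muscle. The same series holds eyecups of Efemp1ki/ki mice, homozygous for a knock-in of Efemp1 that models Doyne honeycomb retinal dystrophy. It also holds neural retinas of both genotypes and an age of 17 months. These were used here to set the wild-type change beside separate or later measurements. The sample titles name no batch, so that a batch following age could not be told apart from age in either genotype. Polyadenylated RNA was sequenced. The labels leave it unstated if a library is 1 mouse or a pool, and the p-values given here reflect library-to-library spread, which may be technical in part.

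The cornea and sclera owe their strength and shape to collagen fibrils made by fibroblasts, which in the cornea are called keratocytes and which also make the small leucine-rich proteoglycans that set fibril diameter and spacing. Resident macrophages of the choroid, ciliary body, iris and cornea take up debris and carry lysosomal and complement genes that are widely used as their markers.

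Library totals ran from 16941524 to 34867064 estimated counts at 9 months and from 17092890 to 27723609 at 3 months. Markers of several neighbouring tissues varied between libraries within each age. Summed CPM (counts scaled to a common library size by the trimmed mean of M values) of 15 rod photoreceptor genes ran from 1499 to 26267 at 9 months, with 9-month libraries 4 and 5 the highest, and from 980 to 9303 at 3 months. For 16 corneal and conjunctival epithelium genes the range was 24476 to 69843 CPM at 9 months and 41241 to 63257 CPM at 3 months. The 20 skeletal muscle genes summed to 3628 to 21626 CPM at 9 months and 6483 to 20775 CPM at 3 months. The 14 lens genes summed to at most 20.1 CPM at 9 months, and at 3 months to 444 CPM in library 9 with a median of 7.2 CPM. Markers of the labelled tissue were present in all 14 libraries: 15 pigment epithelium genes summed to 832 to 2890 CPM at 9 months and 1640 to 2357 CPM at 3 months, and none of the 15 was called. Pigment epithelium and melanocyte lists had median log2 fold changes of 0.06 and -0.03. The 15 rod and 10 cone genes all had positive values, with a median of 0.99 in each list and no call. Corneal and conjunctival epithelium genes had 15 negative values and 1 positive (median -0.19), also with no call. Without 9-month libraries 4 and 5 these medians were 0.32, 0.26 and -0.00.

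**Figure D1:**
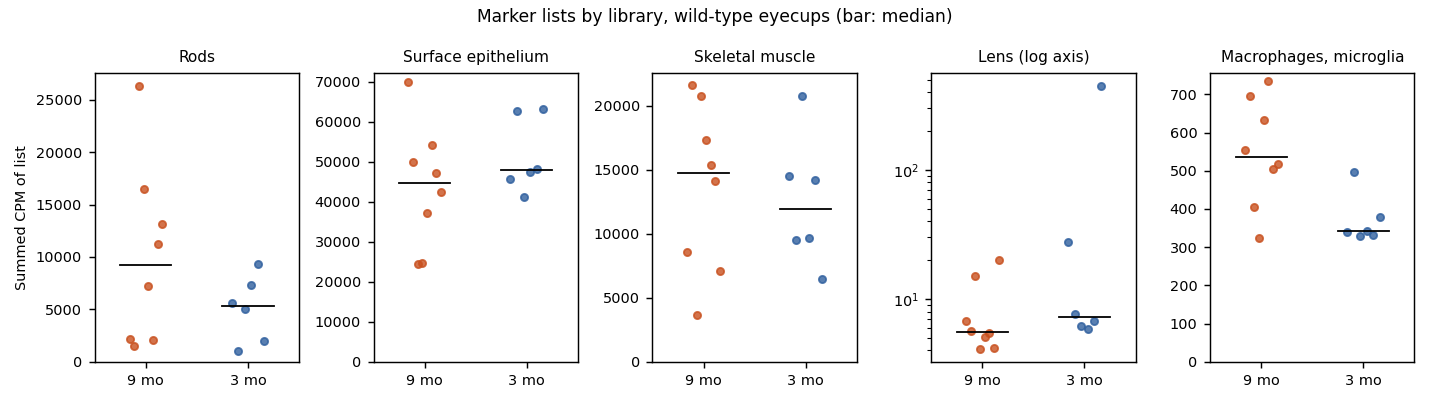
Summed CPM of 5 marker lists in each wild-type eyecup library at 9 months (orange, left, 8 libraries) and 3 months (blue, right, 6 libraries), with the median as a bar. The lens panel alone has a log axis, on which 3-month library 9 stands apart at 444 CPM; rod markers reach 26267 CPM at 9 months and 9303 CPM at 3 months.

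Of 18003 genes tested, 34 (0.189%) were called at an adjusted p under 0.05 in edgeR's quasi-likelihood test. Between 9 and 3 months 28 genes (0.156%) were lower at 9 months and 6 (0.0333%) were higher. The lower genes with the smallest p-values were Matn4, Igfbp2, Wnt5a, A2m, Col12a1 and Htr5b, and the higher gene with the smallest was Lyz2. The median log2 fold change over all 18003 genes was 0.021, and 1282 genes (7.12%) had an unadjusted p under 0.05. The count of called genes was 20 to 22 when any of 3-month libraries 2, 5 and 7 or 9-month libraries 3 and 7 was left out, 10 when only the 2 groups entered the fit, 75 with DESeq2, 139 with covariates for rod, surface epithelium and muscle markers and 196 with limma voom. In bulk tissue, fewer cells of a type and less RNA per cell cannot be told apart. In 15 of the 28 lower genes the CPM of all 9-month libraries lay below that of all 3-month libraries, against 23 such genes (0.128%) among all tested. In none of the 6 higher genes were the groups fully apart, against 9 genes (0.05%) among all tested.

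The keratocyte genes that fell were Kera and Angptl7. Kera, on chromosome 10 from 97607205 to 97613688 (GRCm38, GENCODE), encodes keratocan, a keratan sulfate proteoglycan of the corneal stroma. Its CPM had a lowest, median and highest value of 11.6, 32.4 and 42.4 at 9 months and of 62.9, 102 and 133 at 3 months. The groups did not overlap, and the mean was 31 ± 9.32 CPM at 9 months (SD, n = 8) and 98.3 ± 28.9 CPM at 3 months (SD, n = 6), a log2 fold change of -1.66 ± 0.29 (SE, adjusted p = 0.00158). Angptl7, encoding a secreted angiopoietin-like protein of cornea and trabecular meshwork, lies on chromosome 4 from 148495183 to 148500460. It measured 11 to 33.4 CPM (median 23.3) at 9 months and 50.8 to 77.8 CPM (median 69) at 3 months. Its log2 fold change was -1.54 ± 0.24 (adjusted p = 0.000325), again with no overlap of the groups. Angptl7 lies opposite Mtor, which was at 76 CPM, and the strand setting of the counting is not given in the sources used here, so that reads of the pair may be shared.

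Other keratocyte markers did not pass the test. Over the 10 keratocyte markers tested, 2 fell, none rose, and the median log2 fold change was -0.31. Decorin (Dcn) averaged 634 ± 169 CPM at 9 months and 839 ± 116 CPM at 3 months (adjusted p = 0.722). Lumican (Lum) averaged 98 ± 24.8 CPM at 9 months and 129 ± 22.8 CPM at 3 months (adjusted p = 0.722). Aqp1, a water channel of keratocytes and endothelium, was at 178 ± 31 CPM at 9 months and 267 ± 57.6 CPM at 3 months (adjusted p = 0.381, and 0.000606 with the marker covariates).

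Among collagens, Col1a1 and Col12a1 fell, as did Col13a1, which is not in the fibrillar list. Col1a1, the main chain of type I collagen (chromosome 11, 94936224 to 94953042), had 134 to 415 CPM (median 202) at 9 months and 348 to 599 CPM (median 479) at 3 months. The highest 9-month value, in library 4, lay above the lowest 3-month value, and the log2 fold change was -0.98 ± 0.21 (adjusted p = 0.0255). That call was lost without any of 3-month libraries 2, 3 and 7 or 9-month libraries 5, 7, 8 and 9 (adjusted p 0.0582 to 0.103). Its partner chain Col1a2 averaged 293 ± 107 CPM at 9 months and 485 ± 94.4 CPM at 3 months, a log2 fold change of -0.73 ± 0.21 that did not pass (adjusted p = 0.222). Col12a1, a fibril-associated collagen (chromosome 9, 79598991 to 79718831), measured 50.1 to 114 CPM (median 66.2) at 9 months and 108 to 180 CPM (median 158) at 3 months. Only the highest 9-month library, library 6, lay above the lowest 3-month library, and the log2 fold change was -1.08 ± 0.16 (adjusted p = 0.000195). Col13a1, a transmembrane collagen, was at 3.96 ± 0.972 CPM at 9 months and 6.57 ± 1.19 CPM at 3 months (log2 fold change -0.73 ± 0.16, adjusted p = 0.0281); the call was lost without 3-month library 2, 3 or 7 or 9-month library 4, 5 or 8 (0.0529 to 0.11).

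Of 11 fibrillar and fibril-associated collagens tested, 2 fell and none rose, with a median of -0.13. Of 21 genes for collagen folding, modification and cross-linking none was called. The smallest p among them belonged to Plod1, a collagen lysyl hydroxylase, at 27.8 ± 3.36 CPM at 9 months and 38.4 ± 5.2 CPM at 3 months (log2 fold change -0.47 ± 0.13, adjusted p = 0.188), with no overlap between the groups. None of 19 basement membrane genes and none of 18 elastic fibre genes was called. In the elastic fibre list Mfap4 averaged 37.6 ± 9.58 CPM at 9 months and 57.5 ± 13.2 CPM at 3 months (adjusted p = 0.379), and in the basement membrane list Col4a4 averaged 33.3 ± 8.37 and 44.2 ± 7.82 CPM at 9 and 3 months (adjusted p = 0.614).

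Matn4 and Npnt fell as well. Matn4, which encodes the adaptor protein matrilin-4 and had the smallest p of all genes, lies on chromosome 2 from 164389393 to 164405160. It measured 6.87 to 12.7 CPM (median 9) at 9 months and 16.2 to 29.9 CPM (median 24.5) at 3 months, with no overlap, a log2 fold change of -1.40 ± 0.18 (adjusted p = 2.26e-05). Npnt, encoding the basement membrane integrin ligand nephronectin, averaged 23.8 ± 5.77 CPM at 9 months and 42.3 ± 11 CPM at 3 months, a log2 fold change of -0.83 ± 0.16 (adjusted p = 0.00634, and 0.0566 without 3-month library 5). Sparc, a collagen-binding matricellular protein, was at 403 ± 53.6 CPM at 9 months and 523 ± 76.9 CPM at 3 months and did not pass (adjusted p = 0.391). Of 19 proteoglycan and matricellular genes tested, 1 fell, Kera, which is also in the keratocyte list, and none rose (median -0.24).

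Chsy3, Chst5, Cemip and Fut2 fell, each described singly, as no list of glycan enzymes was counted. Chsy3, a chondroitin synthase, averaged 1.11 ± 0.588 CPM at 9 months and 3.29 ± 0.926 CPM at 3 months (log2 fold change -1.56 ± 0.27, adjusted p = 0.00166). Chst5, a carbohydrate sulfotransferase of the family that sulfates keratan sulfate, had 2.23 to 9.74 CPM (median 5.04) at 9 months and 9.1 to 18.4 CPM (median 16.5) at 3 months. It fell by 1.45 on the log2 scale (SE 0.26, adjusted p = 0.00242), and a single 9-month library, library 6, lay above the lowest 3-month library. Cemip, which takes part in hyaluronan breakdown, averaged 8.97 ± 2.65 CPM at 9 months and 15.1 ± 2.06 CPM at 3 months (log2 fold change -0.75 ± 0.17, adjusted p = 0.0428). Fut2, a fucosyltransferase of surface epithelia, averaged 0.541 ± 0.145 CPM at 9 months and 1.09 ± 0.127 CPM at 3 months (log2 fold change -1.01 ± 0.23, adjusted p = 0.049).

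**Figure D2:**
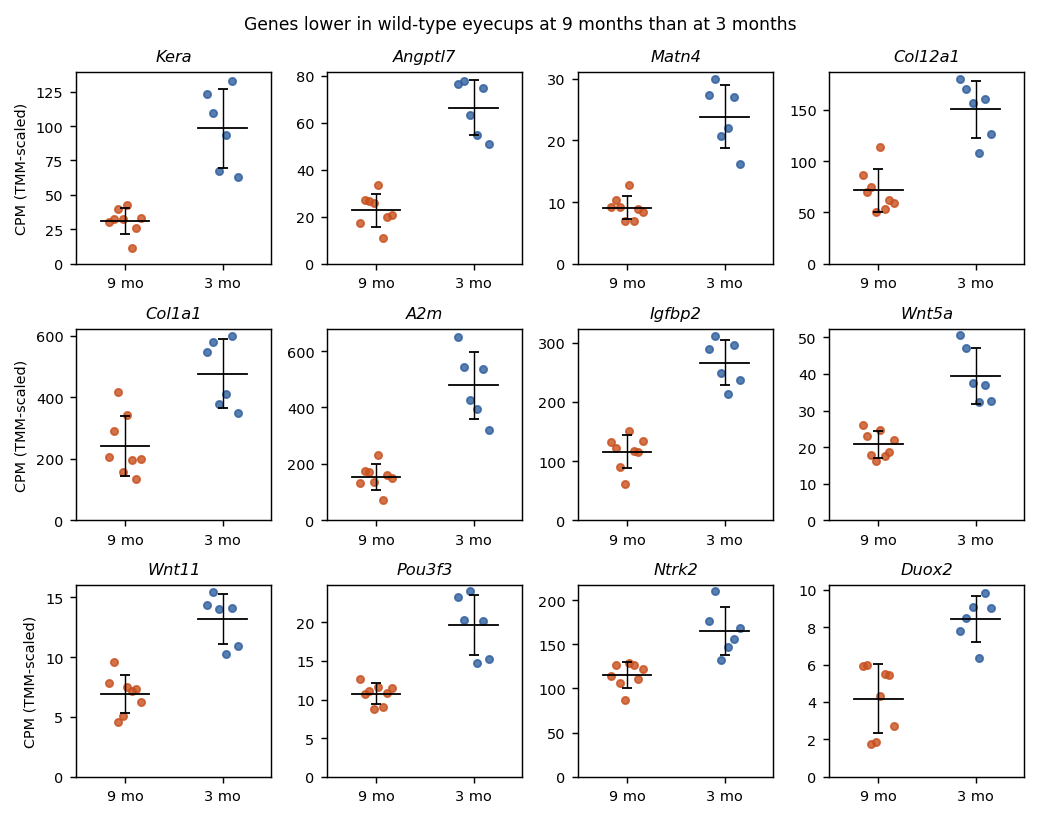
CPM of 12 of the 28 genes that were lower at 9 months, in each wild-type eyecup library at 9 months (orange, left, 8 libraries) and 3 months (blue, right, 6 libraries); bars are means and error bars SD. Kera lay between 11.6 and 42.4 CPM at 9 months and between 62.9 and 133 CPM at 3 months, while the Col1a1 groups overlapped, with 415 CPM in 1 library at 9 months against a lowest value of 348 CPM at 3 months.

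A2m, Igfbp2 and Bmper fell as well; of the 20 matrix proteases and their inhibitors in the list none was called, with 10 positive and 10 negative values (median 0.00). A2m, encoding the protease inhibitor alpha-2-macroglobulin (chromosome 6, 121635376 to 121679227), measured 72.7 to 230 CPM (median 155) at 9 months and 320 to 650 CPM (median 482) at 3 months. The groups lay apart, with a log2 fold change of -1.64 ± 0.24 (adjusted p = 0.000182). Igfbp2, an insulin-like growth factor binding protein (chromosome 1, 72824503 to 72852474), measured 61.8 to 151 CPM (median 120) at 9 months and 213 to 311 CPM (median 270) at 3 months. It fell by 1.20 on the log2 scale (SE 0.17, adjusted p = 8.22e-05), with no overlap. Bmper, a secreted modulator of bone morphogenetic proteins, averaged 3.75 ± 1.17 CPM at 9 months and 6.98 ± 1.77 CPM at 3 months (log2 fold change -0.90 ± 0.20, adjusted p = 0.0395).

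Of the Wnt pathway, Wnt5a, Wnt11 and Dkk2 fell. Wnt5a, a ligand of non-canonical Wnt signalling (chromosome 14, 28504750 to 28527447), measured 16.3 to 26.1 CPM (median 20.4) at 9 months and 32.3 to 50.6 CPM (median 37.3) at 3 months. It did not overlap between the ages and fell by 0.93 on the log2 scale (SE 0.13, adjusted p = 0.000122). Wnt11, another non-canonical ligand (chromosome 7, 98835112 to 98855195), measured 4.56 to 9.62 CPM (median 7.24) at 9 months and 10.2 to 15.5 CPM (median 14.1) at 3 months, likewise without overlap. Its log2 fold change was -0.93 ± 0.18 (adjusted p = 0.00544). Dkk2, a secreted Wnt modulator, averaged 12.8 ± 4.98 CPM at 9 months and 26.1 ± 5.13 CPM at 3 months (log2 fold change -1.02 ± 0.24, adjusted p = 0.0494), with 9-month library 6 at 24.2 CPM. Of 27 Wnt and transforming growth factor pathway genes in the list, 2 fell (Wnt5a and Dkk2), none rose and the median was -0.13; Wnt11 was not in the list. The Wnt antagonist Wif1 averaged 1.59 ± 0.423 CPM at 9 months and 3.45 ± 1.3 CPM at 3 months and missed the threshold (log2 fold change -1.12 ± 0.27, adjusted p = 0.0596).

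Pou3f3, Lmx1b and Irx3, which encode transcription factors and belong to none of the lists, fell. Pou3f3, a POU-domain factor (chromosome 1, 42695768 to 42703176), measured 8.75 to 12.6 CPM (median 11) at 9 months and 14.8 to 24 CPM (median 20.3) at 3 months. The groups lay apart and the log2 fold change was -0.87 ± 0.14 (adjusted p = 0.000325). Lmx1b, a homeodomain factor needed for development of the anterior segment, averaged 8.95 ± 2.71 CPM at 9 months and 16.4 ± 3.13 CPM at 3 months (log2 fold change -0.87 ± 0.19, adjusted p = 0.0291). Irx3, an Iroquois homeodomain factor, averaged 8.86 ± 1.41 CPM at 9 months and 13.2 ± 1.63 CPM at 3 months (log2 fold change -0.57 ± 0.13, adjusted p = 0.0395).

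Among receptors and membrane proteins, Ntrk2, which encodes the receptor of brain-derived neurotrophic factor, had the smallest change of the 28. It measured 86.8 to 129 CPM (median 118) at 9 months and 132 to 211 CPM (median 162) at 3 months, and its log2 fold change was -0.52 ± 0.10 (adjusted p = 0.00536). Htr5b, a serotonin receptor gene, had the largest log2 fold change of the 28, at -2.31 ± 0.35 (adjusted p = 0.000195). Its level was low, 0.214 to 0.588 CPM (median 0.291) at 9 months and 1.12 to 2.1 CPM (median 1.79) at 3 months, yet the groups did not overlap. Tmem132c, a transmembrane protein, averaged 7.52 ± 2.14 CPM at 9 months and 15.1 ± 2.79 CPM at 3 months (log2 fold change -1.01 ± 0.19, adjusted p = 0.00563). Slc14a1, a urea transporter, averaged 15.9 ± 3.83 CPM at 9 months and 26.1 ± 5.93 CPM at 3 months (log2 fold change -0.72 ± 0.16, adjusted p = 0.0395). Vwde averaged 0.14 ± 0.141 CPM at 9 months and 0.709 ± 0.387 CPM at 3 months (log2 fold change -2.30 ± 0.50, adjusted p = 0.0291).

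Duox2 and Duoxa2, which lie next to each other in opposite directions on chromosome 2, both fell. Duox2 encodes a hydrogen peroxide-producing oxidase of mucosal epithelia and Duoxa2 the partner it needs to leave the endoplasmic reticulum. Duox2 measured 1.75 to 5.99 CPM (median 4.88) at 9 months and 6.33 to 9.84 CPM (median 8.77) at 3 months, with no overlap and a log2 fold change of -1.01 ± 0.21 (adjusted p = 0.0202). Duoxa2 measured 0.922 to 3.32 CPM (median 1.7) at 9 months and 2.99 to 4.83 CPM (median 4.1) at 3 months, overlapping in the highest 9-month library, with a log2 fold change of -1.18 ± 0.26 (adjusted p = 0.0395). Duoxa2 overlaps Duoxa1 on the other strand, at 9.1 CPM. In 9-month libraries 4 and 5 Duox2 was at 1.75 and 1.84 CPM and Duoxa2 at 0.922 and 0.948 CPM. These libraries had the highest rod markers and the lowest surface epithelium sums of all 14 libraries, at 24476 and 24645 CPM. The part of either tissue was not tested. Without these libraries the adjusted p was 0.0608 for Duox2 and 0.204 for Duoxa2. The Duox2 call was also lost without 3-month library 5 or 7 or 9-month library 9 (0.0527 to 0.0773).

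The starts of the 2 genes in RefSeq (GRCm38.p6) lie 673 bases apart, and the windows around them are printed because this neighbouring pair moved together. Each runs 5′ to 3′ on the strand of its gene from 250 bases before the start to 50 after it, at chr2:122298650-122298949 on the plus strand for Duoxa2 and chr2:122298178-122298477 on the minus strand for Duox2. Capitals mark a TATA box (TATAAA) and an AP-1 motif (TGANTCA, where N is any base), searched on both strands; the Duox2 window holds neither. The last window is that of Itgax, a gene that rose, at chr7:128129300-128129599 on the plus strand.
Duoxa2: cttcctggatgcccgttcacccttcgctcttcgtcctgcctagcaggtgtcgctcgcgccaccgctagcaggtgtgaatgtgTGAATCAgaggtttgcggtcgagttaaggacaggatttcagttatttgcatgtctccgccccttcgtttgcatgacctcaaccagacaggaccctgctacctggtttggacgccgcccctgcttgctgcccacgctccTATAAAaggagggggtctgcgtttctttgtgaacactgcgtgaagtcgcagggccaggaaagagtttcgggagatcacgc
Duox2: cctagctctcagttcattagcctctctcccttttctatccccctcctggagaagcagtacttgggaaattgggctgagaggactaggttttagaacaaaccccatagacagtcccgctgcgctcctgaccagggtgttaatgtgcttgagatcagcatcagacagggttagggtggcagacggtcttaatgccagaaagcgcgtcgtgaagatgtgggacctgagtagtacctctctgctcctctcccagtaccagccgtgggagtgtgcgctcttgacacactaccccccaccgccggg
Itgax: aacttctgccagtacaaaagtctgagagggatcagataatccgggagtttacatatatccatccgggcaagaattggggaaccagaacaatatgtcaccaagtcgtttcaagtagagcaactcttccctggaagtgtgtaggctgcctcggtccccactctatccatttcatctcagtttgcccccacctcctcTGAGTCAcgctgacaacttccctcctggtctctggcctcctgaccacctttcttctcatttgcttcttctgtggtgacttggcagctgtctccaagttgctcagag
The Duoxa2 window carries TATAAA at position -30 from the start and 1 AP-1 motif, and the Itgax window 1 AP-1 motif. Promoters were matched for 25 of the 34 called genes, 20 lower and 5 higher. TATAAA was present in 5 of the 20 lower genes (25%) and 1 of the 5 higher genes, against 10.8% of all 16703 promoters. TGANTCA was present in 1 of 20 and 1 of 5, against 6.7%. The core motif of the myeloid factor PU.1 (GAGGAA) was present in 2 of the 20 lower genes and none of the 5 higher genes, against 27.3%, and TAATTA, a homeodomain core, in none of the 25, against 4.04%. These are letter matches in the windows and were not tested as binding sites.

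Crybb3, a lens crystallin, was called lower but rested on 1 library. It measured 0.415 to 1.06 CPM (median 0.538) at 9 months and 0.725 to 11.6 CPM (median 0.978) at 3 months, and the highest value was that of 3-month library 9, whose lens markers stood apart. The log2 fold change of -2.15 ± 0.43 (adjusted p = 0.0121) was -0.70 without that library (adjusted p = 0.956). Over the 10 lens genes tested the median log2 fold change was -3.16 with library 9 and -0.35 without it, and without it none was called.

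The genes that rose were Lyz2, Itgax, Atp6v0d2, Cd22, Cxcl13 and Alb. Lyz2 encodes the lysozyme of macrophages and neutrophils (chromosome 10, 117277334 to 117282274). It measured 104 to 266 CPM (median 186) at 9 months and 84.4 to 137 CPM (median 93.1) at 3 months. Of the 9-month libraries 7 of 8 lay above every 3-month library, the exception being library 5, and the log2 fold change was 1.00 ± 0.19 (adjusted p = 0.00698). Its near-identical neighbour Lyz1 was far lower, at 3.85 ± 1.7 CPM at 9 months and 2.65 ± 0.789 CPM at 3 months (adjusted p = 0.722), and reads shared by both copies may have been split between them.

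Itgax, encoding the integrin CD11c of dendritic cells and activated macrophages (chromosome 7, 128129547 to 128150657), measured 2.79 to 8.93 CPM (median 6.57) at 9 months and 2.54 to 4.63 CPM (median 3.31) at 3 months. Its log2 fold change was 0.91 ± 0.20 (adjusted p = 0.0255), lost without 3-month library 2, 5, 6 or 7 or 9-month library 3 or 7 (0.0635 to 0.114). Atp6v0d2, a subunit of the proton pump that acidifies lysosomes, known from macrophages and osteoclasts, measured 1.45 to 3.85 CPM (median 2.85) at 9 months and 0.725 to 1.73 CPM (median 0.995) at 3 months. It rose by 1.30 on the log2 scale (SE 0.27, adjusted p = 0.0202), with the call lost without 3-month library 5, 6 or 7 or 9-month library 3 (0.0531 to 0.0893). Cd22, a lectin receptor of B cells that microglia also express with age, measured 1.03 to 2.6 CPM (median 1.85) at 9 months and 0.495 to 1.26 CPM (median 0.879) at 3 months. Its log2 fold change was 1.04 ± 0.22 (adjusted p = 0.0202), lost without 3-month library 2, 6 or 7 or 9-month library 3 (0.0512 to 0.0884).

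Cxcl13, a chemokine that attracts B cells, measured 0.852 to 7.99 CPM (median 2.28) at 9 months and 0.335 to 1.67 CPM (median 0.623) at 3 months. Libraries 3 and 7 held the 2 highest 9-month values, 7.54 and 7.99 CPM. The log2 fold change was 1.95 ± 0.44 (adjusted p = 0.0401), lost without 9-month library 3 or 7 or 3-month library 3, 6, 7 or 9 (0.096 to 0.147). Alb, encoding the plasma protein albumin, was at 0 to 12.6 CPM (median 1.3) at 9 months and at 0 in 4 of the 6 libraries at 3 months, with a highest value of 0.593 CPM. Of the 9-month libraries 2 were also at 0, and the fitted log2 fold change of 4.61 ± 1.06 (adjusted p = 0.0475) depends on how zeros are handled; library 6 held the highest value at each age.

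**Figure D3:**
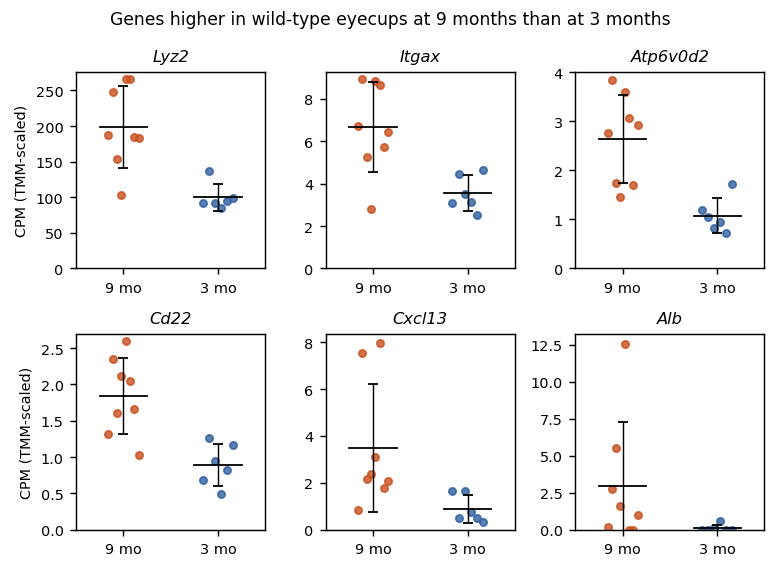
CPM of the 6 genes that were higher at 9 months, in each wild-type eyecup library at 9 months (orange, left, 8 libraries) and 3 months (blue, right, 6 libraries); bars are means and error bars SD. In each gene the groups overlap; Lyz2 ran from 104 to 266 CPM at 9 months and from 84.4 to 137 CPM at 3 months, and Alb reached 12.6 CPM in a single 9-month library.

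The wider macrophage list had values in the direction of Lyz2, mostly short of the threshold. Of 16 macrophage and microglia markers tested, 1 rose (Lyz2) and none fell. All 16 had positive log2 fold changes (median 0.43), and 7 had an unadjusted p under 0.05, against 3.01% of all genes for higher values. Summed over the list, the CPM ran from 325 to 735 (median 535) at 9 months and from 330 to 497 (median 341) at 3 months. Mpeg1, encoding the pore-forming protein of macrophage phagosomes, measured 33.1 to 67.3 CPM (median 54.5) at 9 months and 26.1 to 46.6 CPM (median 30) at 3 months (log2 fold change 0.68 ± 0.16, adjusted p = 0.066). The complement genes C1qa, C1qb and C1qc had log2 fold changes of 0.49, 0.43 and 0.48 (adjusted p 0.293, 0.493 and 0.273).

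The lowest Mpeg1 values at 9 months were those of libraries 5 and 4, at 33.1 and 37.7 CPM. These libraries had the highest rod markers and the lowest surface epithelium sums. The part of either tissue alone was not tested. With the covariates for rod, surface epithelium and muscle markers 7 of the 16 were called higher (Adgre1, Trem2, C1qa, C1qc, C1qb, Mpeg1 and Lyz2), against 0.339% of all genes. With the 2 libraries left out 6 were called, against 0.1% of all genes. Under the covariates Mpeg1 had a log2 fold change of 0.79 (adjusted p = 7.8e-05) and Trem2, a lipid-sensing receptor of myeloid cells, one of 0.72 (adjusted p = 0.0334).

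Complement and antigen presentation genes were not called in the main fit. The marker covariates gave 5 complement calls (Itgb2, C3, C1qa, C1qc and C1qb) and 3 antigen presentation calls (H2-Q7, B2m and H2-K1). All were higher, against 0.339% of all genes. C1qa, C1qb and C1qc are also in the macrophage list, so that their calls are no separate result. Leaving out 9-month libraries 4 and 5 gave 4 and 0 calls, against 0.1% of all genes in each direction. Of 24 complement genes tested none passed, 18 had positive values and the median was 0.27. An unadjusted p under 0.05 in the higher direction was found in 8, against 3.01% of all genes. C3, the central complement component, measured 55.6 to 180 CPM (median 87.3) at 9 months and 42.7 to 85.5 CPM (median 63.2) at 3 months (log2 fold change 0.71 ± 0.22, adjusted p = 0.275). Cfb, encoding complement factor B, was at 9.15 to 21.1 CPM (median 14.2) at 9 months and 9.08 to 11.8 CPM (median 10.2) at 3 months, a log2 fold change of 0.45 ± 0.23 that did not pass (adjusted p = 0.707). Of the 17 antigen presentation genes none was called, all had positive values (median 0.38) and 9 had an unadjusted p under 0.05. In Efemp1ki/ki eyecups over the same interval the antigen presentation list had 7 positive and 10 negative values (median -0.10) and 1 call, higher. The complement list there had 15 positive and 9 negative values (median 0.12), with 5 genes called higher and 1 lower. Of all genes 6.94% were called higher and 7.63% lower in that comparison. H2-Q7, a non-classical class I gene whose reads may be shared with its close relatives, averaged 8.41 ± 1.94 CPM at 9 months and 4.52 ± 1.33 CPM at 3 months (adjusted p = 0.171). Cd74, the class II invariant chain, averaged 100 ± 22.5 CPM at 9 months and 73.5 ± 15.9 CPM at 3 months (adjusted p = 0.604).

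Efemp1 itself, which encodes the matrix protein fibulin-3, measured 176 to 297 CPM (median 262) at 9 months and 193 to 305 CPM (median 255) at 3 months. The groups overlapped over nearly their whole range and the log2 fold change was -0.02 ± 0.15 (adjusted p = 0.977).

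Proliferation genes had lower values at 9 months without any call. All 30 tested had negative log2 fold changes (median -0.43), 14 had an unadjusted p under 0.05, against 4.12% of all genes for lower values, and none passed the adjusted threshold. Foxm1, a transcription factor of dividing cells, averaged 15.9 ± 4.84 CPM at 9 months and 22.9 ± 4.06 CPM at 3 months (log2 fold change -0.53 ± 0.20, adjusted p = 0.551). The mitotic kinase Plk1 averaged 11.3 ± 3.85 CPM at 9 months and 16.4 ± 2.57 CPM at 3 months (adjusted p = 0.596). These genes were lowest in 9-month libraries 4 and 5, with Foxm1 at 12.1 and 8.31 CPM, and without these libraries the median of the list was -0.28. With the covariates for rod, surface epithelium and muscle markers together, the list again had no call. The part of surface epithelium alone, also low in these libraries, was not tested. In Efemp1ki/ki eyecups 25 values were negative and 5 positive (median -0.18). There 2 had an unadjusted p under 0.05 in the lower direction, against 5248 of all 18003 genes in either direction.

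Of 17 acute inflammation genes tested none was called, with 13 negative and 4 positive values (median -0.41). An unadjusted p under 0.05 in the lower direction was found in 7, against 4.12% of all genes. The summed CPM of the list was 254 to 345 (median 311) at 9 months and 276 to 499 (median 328) at 3 months. The highest sums were those of 3-month libraries 6 and 9, at 499 and 421 CPM. In Efemp1ki/ki eyecups 6 values were positive and 11 negative (median -0.11). Zc3h12a, which encodes an RNase that limits cytokine mRNAs, averaged 17.5 ± 6.57 CPM at 9 months and 36.2 ± 12.9 CPM at 3 months (log2 fold change -1.05 ± 0.26, adjusted p = 0.0886). For the neutrophil chemokine Cxcl1 the difference rested on 3-month library 6, at 10.9 CPM, the next value being 1.4 CPM; the 9-month libraries were at 0.16 to 0.855 CPM (adjusted p = 0.106).

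The Efemp1ki/ki eyecups, 8 libraries at each age that share no library with the wild type, gave a separate measurement of the same interval. There 2624 genes (14.6%) were called, 1250 higher (6.94%) and 1374 lower (7.63%). Of the 28 genes lower in wild type, 28 were lower in Efemp1ki/ki eyecups and 27 were called, the exception being Crybb3. Of the 6 higher genes, 6 were higher and 4 were called, the exceptions being Alb and Cd22. Kera averaged 33.6 ± 12.6 CPM at 9 months and 77.9 ± 23.1 CPM at 3 months in Efemp1ki/ki eyecups (log2 fold change -1.21 ± 0.27, adjusted p = 0.0036). Igfbp2 averaged 105 ± 17.3 CPM at 9 months and 298 ± 41.3 CPM at 3 months there (log2 fold change -1.51 ± 0.16, adjusted p = 1.22e-07). Lyz2 averaged 165 ± 23.7 CPM at 9 months and 102 ± 32.1 CPM at 3 months (log2 fold change 0.70 ± 0.18, adjusted p = 0.0074).

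In 3 of the 8 Efemp1ki/ki libraries at 3 months, libraries 2, 3 and 4, the slope of log2 CPM on GC content stood apart, at 0.235, 0.442 and 0.815 per 10 percentage points. It was 0.0471 to 0.101 in the other 5 and -0.259 to 0.107 in the Efemp1ki/ki libraries at 9 months. Without libraries 2, 3 and 4 the Efemp1ki/ki comparison called 62 genes, 42 lower (0.233%) and 20 higher (0.111%). All 28 lower and all 6 higher genes kept their direction there; 20 of the 28 lower genes were called, without Wnt11, Duoxa2, Dkk2, Crybb3, Bmper, Cemip, Fut2 and Col13a1, and none of the 6 higher genes was. With a GC offset for each library, 287 genes were called in that genotype, 209 lower (1.16%) and 78 higher (0.433%). Of the 28 lower genes 23 were then called in the same direction, without Wnt11, Crybb3, Irx3, Bmper and Col13a1, and of the 6 higher genes 2, Itgax and Cxcl13. The test of the difference between the genotypes' changes called no gene (edgeR; 1265 genes, 7.03%, had an unadjusted p under 0.05; DESeq2 also called none, while limma voom called 1044). Among the 34 genes, 3 had an unadjusted p under 0.05 for this difference: Crybb3 (0.0463), Npnt (0.0388) and Cd22 (0.0446). Npnt changed by -0.83 ± 0.16 in wild type and by -1.29 ± 0.15 in Efemp1ki/ki eyecups.

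**Figure D4:**
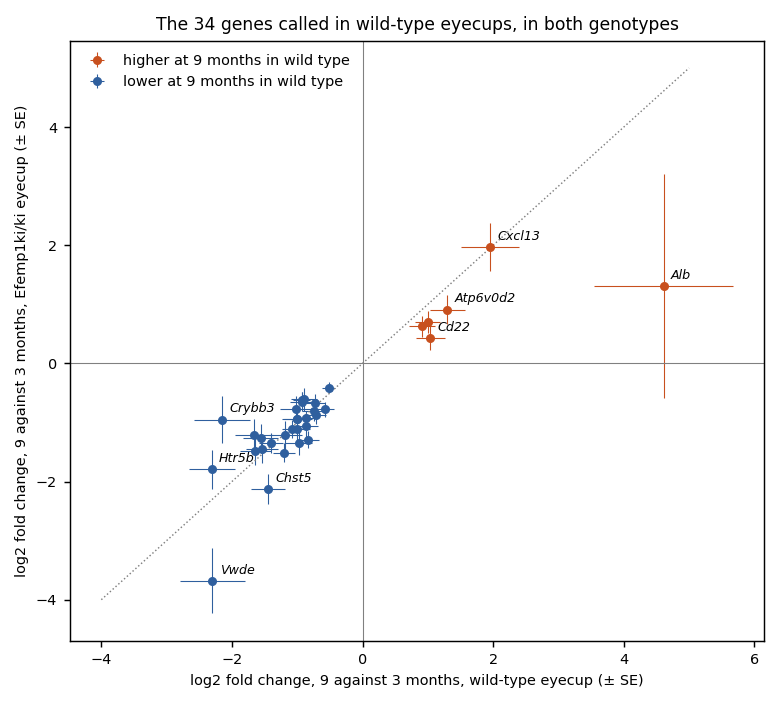
Log2 fold change at 9 against 3 months of the 34 genes called in wild-type eyecups, in wild type (x axis, 8 against 6 libraries) and in Efemp1ki/ki eyecups (y axis, 8 against 8 libraries), with SE as bars and the dotted line marking equal change. All 34 have the same sign in both genotypes; Alb, at 4.61 in wild type and 1.31 in Efemp1ki/ki, has the widest error.

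At 17 months (8 wild-type libraries) the lower genes showed no further called change. None of the 28 was called between 17 and 9 months, where 9 genes (0.05%) were called in all, 7 higher (0.0389%) and 2 lower (0.0111%), and their log2 fold changes ran from -2.16 for Vwde to 0.60 for Crybb3. Between 17 and 3 months 27 of the 28 were called lower, against 3.16% of all genes, with Irx3 the exception. These comparisons share the 9-month and the 3-month libraries with the main comparison and are no independent measurements. Col1a1 averaged 477, 242 and 245 CPM at 3, 9 and 17 months, and Kera 98.3, 31 and 31.6 CPM. A2m averaged 478, 154 and 150 CPM at these ages.

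The myeloid genes had their highest means at 17 months. Lyz2 averaged 99.7, 199 and 348 CPM at 3, 9 and 17 months, and its change between 17 and 9 months was 0.80 on the log2 scale (adjusted p = 0.0561). Itgax averaged 3.55, 6.67 and 12.4 CPM and rose again between 17 and 9 months (log2 fold change 0.89, adjusted p = 0.0231). Mpeg1 averaged 32.7, 52.3 and 89.8 CPM and also rose between 17 and 9 months (log2 fold change 0.78, adjusted p = 0.0158). Alb, at 0.117, 2.96 and 0.0169 CPM, fell between 17 and 9 months (adjusted p = 0.00731). Of the 6 higher genes 5, all but Alb, were called higher between 17 and 3 months, against 2.73% of all genes.

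**Figure D5:**
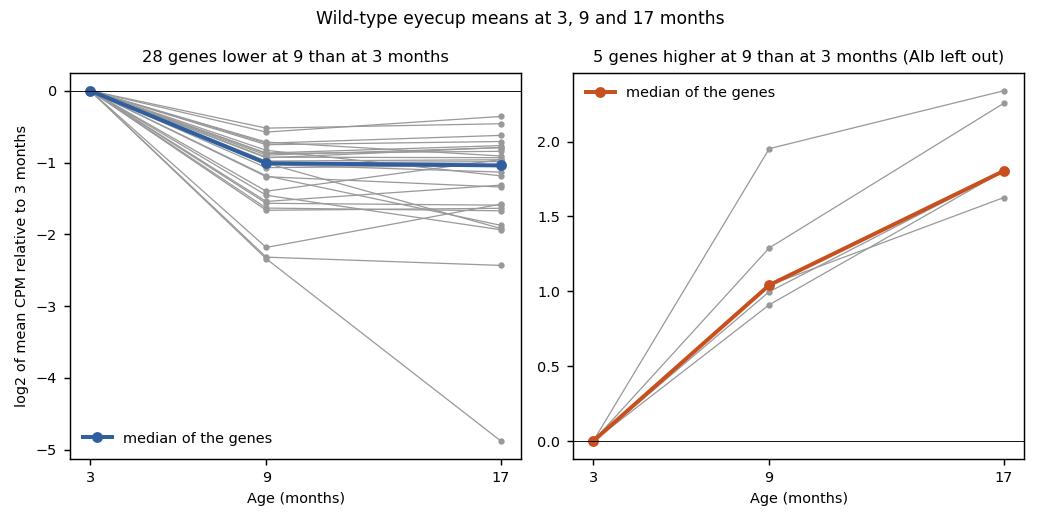
Log2 of the mean CPM of wild-type eyecups at 3, 9 and 17 months relative to 3 months, for the 28 lower genes (left) and 5 of the 6 higher genes (right, Alb left out for its zeros); grey lines are genes and the coloured line is their median. The median of the lower genes was -1.01 at 9 months and -1.04 at 17 months, and that of the higher genes 1.04 at 9 months and 1.80 at 17 months; the genes were chosen for their change between 3 and 9 months, so that part of the lines is a description.

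In the wild-type neural retina over the same interval (8 libraries at each age), 1555 of 19210 genes (8.09%) were called, 657 higher (3.42%) and 898 lower (4.67%). None of the 28 genes fell there, and Col1a1 and Col12a1 rose. Col12a1 averaged 24 CPM at 9 months and 15.6 CPM at 3 months in the retina (log2 fold change 0.62, adjusted p = 0.00184), and Col1a1 averaged 4.32 CPM at 9 months and 2.82 CPM at 3 months (log2 fold change 0.63, adjusted p = 0.0348). Of the 6 higher genes, Lyz2 and Atp6v0d2 also rose in the retina. Lyz2 averaged 11.7 CPM at 9 months and 4.24 CPM at 3 months there (log2 fold change 1.46, adjusted p = 4.57e-05). Many eyecup genes were close to 0 in the retina, such as Kera at 0.0672 CPM at 9 months and 0.0514 CPM at 3 months.

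The difference between the eyecup and the retina change was tested in a joint fit, which called 161 genes (0.838%), 46 with a higher (0.239%) and 115 with a lower change in the eyecup. The genes were chosen for their change in the same eyecup libraries, so that nothing can be read from the number called among them. Among the 28 lower genes 13 were called (0.599% of all genes in that direction), and among the 6 higher genes Cxcl13 was called (2.18, adjusted p = 0.0139). The difference was -1.70 for Col12a1 (adjusted p = 5.45e-09), -2.08 for A2m (adjusted p = 5.47e-06) and -1.62 for Col1a1 (adjusted p = 0.000309). For Wnt5a it was -0.94 (adjusted p = 0.000673), for Igfbp2 -1.16 (adjusted p = 0.00126), for Pou3f3 -0.80 (adjusted p = 0.00142) and for Angptl7 -1.79 (adjusted p = 0.00234). For Matn4 and Kera, nearly absent from the retina, the difference was not called (adjusted p 0.252 and 0.427). For Lyz2 it was -0.47 (adjusted p = 0.533).

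Among the 34 genes, 9 passed in all 24 alternative fits: Matn4, Igfbp2, Wnt5a, A2m, Htr5b, Angptl7, Pou3f3, Kera and Wnt11. Another 6 (Col12a1, Chst5, Tmem132c, Ntrk2, Chsy3 and Lyz2) passed in all but the fit limited to the 2 groups, where the adjusted p was 0.0551 for Col12a1 and 0.109 to 0.161 for the rest. The calls of 10 low or variable genes depended on the presence of most libraries, with adjusted p up to 0.171 when 1 was left out. Fut2 lost its call without any library except 9-month library 1. Dkk2 kept it only without 3-month library 9 or 9-month library 6. Duoxa2 kept it without 3-month library 7 or 9-month library 1, 6 or 8, and Lmx1b without 3-month library 6 or 9 or 9-month library 1 or 6. Cemip kept it without 3-month library 9 or 9-month library 1, 4 or 6, and Alb without 3-month library 6 or 9-month library 1, 7, 8 or 9. Irx3 kept it without 3-month library 6 or 7 or 9-month library 1, 6 or 8, and Slc14a1 without 3-month library 6 or 9 or 9-month library 1, 6 or 8. Bmper kept it without 3-month library 5, 6 or 9 or 9-month library 4 or 6, and Vwde without 3-month library 6, 7 or 9 or 9-month library 1, 6 or 9.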

How the data were processed

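RNA was extracted with a kit that includes a DNase step and made into stranded polyadenylated libraries, per the labels' protocols. The authors deposited estimated counts per gene, 37.9% of them not whole, and a TPM-like table scaled to a fixed sum over protein-coding genes, treated here as a score. The build was GRCm38.p4, per the submitters' processing notes; for the aligner, counter and strand setting the sources used here give no name. Of the columns, 1 per deposited file matched no sample and was not used. Groups and library numbers came from the sample titles. Counts were rounded and analysed with edgeR 4.0.16 in R 4.3.3: low-count filter by group, TMM scaling, and the robust quasi-likelihood F test with Benjamini-Hochberg adjustment over all genes tested, called at 0.05. A single fit held the 45 eyecup libraries in 6 groups (18003 genes), and a joint fit held all 93 libraries in 12 groups (19210 genes) for the tissue difference. All adjusted p-values are from edgeR unless another tool is named; SE is the log2 fold change divided by the square root of F.

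Alternatives were DESeq2 1.42.0 with its size factors, limma 3.58.1 (voom with quality weights, and log2(TPM + 1)), relative-log scaling, no low-count filter, only the groups compared, a replicate block, covariates for rod, surface epithelium and muscle markers, a GC offset (spline with 5 degrees of freedom, GC known for 99.6% of genes) and leaving out each library. Steps were tested on simulated data. The precision of each value rests on library totals of 16941524 to 34867064 counts. No 2 libraries of a group agreed within sampling noise (smallest chi-square per degree of freedom 8.04).

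The members and the 49 gene lists were chosen with earlier results of these data known. Genes were named by rule: Efemp1 and Cfb; among called genes (mean log2 CPM 0 or more), up to 15 by p with a change of 0.5 or more and 5 by fold change per direction; up to 6 members by p and every called member of each list; and 10 for each interaction. Called genes outside the rule, described after their values were seen, were Duoxa2, Irx3, Bmper, Lmx1b, Htr5b, Cemip, Fut2, Col13a1, Slc14a1, Duox2 and Vwde; so was Lyz1.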

Additional observations from a re-analysis of the deposited data

Results flagged for a closer look

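Single libraries stood apart from the rest of their group in 19 of 150 checks by Dixon's criterion, which chance alone meets in about 1 in 20. In 3-month library 9, lens genes were high: Crybb3 at 11.6 CPM, Crybb1 at 13.1, Cryba1 at 36.2 and Bfsp1 at 16.3. In 3-month library 3, myeloid and matrix genes were high: Lyz2 at 137 CPM, Itgb2 at 11.4, Adgre1 at 8.15, C1qb at 45.7, H2-Eb1 at 40 and Mfap4 at 82.7. In 3-month library 6, the chemokines Cxcl1 (10.9 CPM) and Cxcl2 (3.61 CPM) and Alb (0.593 CPM) were high. In 9-month library 6, Alb was at 12.6 CPM, Dkk2 at 24.2 and Col4a4 at 51.4. In 9-month library 4, Bmper was at 6.22 CPM and Col5a2 at 98.7, and in 9-month library 5 Irx3 was low, at 5.58 CPM.

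The change between 9 and 3 months differed between wild-type eyecup and wild-type retina, by the test of the difference itself, in 10 genes taken by their p-values. The eyecup change minus the retina change, on the log2 scale, was -1.70 for Col12a1, -2.08 for A2m, -1.62 for Col1a1 and -0.94 for Wnt5a. It was -0.80 for Col4a5, -1.05 for Col4a4 and -1.04 for Col16a1, further collagens. It was -1.31 for Ect2, a regulator of cell division, -0.60 for the centriole gene Cntrl and -0.96 for Rnf43, a Wnt receptor ubiquitin ligase. Each difference combines the change in the eyecup with that in the retina. Of these genes only Col12a1, A2m, Col1a1 and Wnt5a were called in the eyecup itself.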

How the results depend on the processing

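The 34 calls at 9 against 3 months became 10 with only the groups compared, 196 with limma voom, 75 with DESeq2 and 139 with the marker covariates. They ranged from 20 to 45 over the fits leaving out 1 library. The other planned settings gave 25 to 47 calls. Leaving out 9-month libraries 4 and 5, chosen after seeing the data, gave 36 calls, 18 in each direction and 22 shared with the main result. The higher and lower calls were 100 and 96 with limma voom and 61 and 78 with the covariates, against 6 and 28 with edgeR as reported. The Efemp1ki/ki count of 2624 was 287 with the GC offset and 62 without Efemp1ki/ki 3-month libraries 2, 3 and 4, both chosen after seeing the data. The genotype difference, with no call in edgeR, gave 1044 with limma voom. The tissue difference, 161 calls, gave 90 without the low-count filter, 1543 with limma voom, 290 with DESeq2 and 390 with limma on log2(TPM + 1). The Efemp1 log2 fold change, not called, (-0.02) changed sign to 0.02 with the replicate block, 0.10 with limma voom and with the covariates, 0.02, 0.04, 0.05 and 0.04 without 3-month library 3 or 9 or 9-month library 4 or 5 (range -0.09 to 0.05 over libraries), and 0.12 without 9-month libraries 4 and 5. The cause was not tested. The sample titles do not say if library numbers shared by both ages pair the samples. Correlations of deviations were 0.605, 0.459, -0.0453, -0.669 and -0.00718 for numbers 3, 5, 6, 7 and 9. Of these only number 3 at 9 months matched its own number best at 3 months. So few correlations cannot decide on pairing. The replicate block gave 30 calls, 0 for the genotype difference and 142 for the tissue difference.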

Other observations

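None of the tested members of the lymphocyte and interferon-induced lists was called. Cd22, which was called higher, is in none of these lists. Of 10 T and natural killer cell genes tested, 9 had positive log2 fold changes (median 0.47). An unadjusted p under 0.05 in the higher direction was found in 3, against 3.01% of all genes. Nkg7, a granule protein of cytotoxic cells, averaged 0.504 ± 0.186 CPM at 9 months (SD, n = 8) and 0.254 ± 0.136 CPM at 3 months (SD, n = 6; adjusted p = 0.451). Of 10 B and plasma cell genes 5 were positive and 5 negative (median 0.20), and 2 had an unadjusted p under 0.05, both higher. Of 22 interferon-induced genes 21 were positive (median 0.21), and 3 had an unadjusted p under 0.05, all higher.

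In metabolism, all 18 glycolysis genes tested had positive values (median 0.26) and 1 had an unadjusted p under 0.05. Rod markers had a median of 0.99. Without 9-month libraries 4 and 5 the medians were 0.16 for glycolysis and 0.32 for rod markers. A link between these lists was not tested. Ldha, lactate dehydrogenase A, averaged 557 ± 56.7 CPM at 9 months and 486 ± 20.5 CPM at 3 months (adjusted p = 0.717). Of 22 cholesterol synthesis genes 21 were negative (median -0.17, and -0.04 without these libraries). Of 12 Schwann cell and myelin genes 6 were positive and 6 negative (median -0.09), and 4 had an unadjusted p under 0.05 in the lower direction, against 4.12% of all genes.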
